A study of Mus musculus with 30 samples.

Results

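The livers described here are 8 of the 30 profiled in the study, chosen by their labels: 4 from UN-TU offspring (replicates 27 to 30) and 4 from UN-Veh offspring (replicates 23 to 26). Both groups were male C57Bl/6NCr mice of 22 weeks that had been undernourished in utero (UN), because the calories of their dams were cut by 40% in late pregnancy. Both were raised by normally nourished foster dams and were fed a high-fat diet (HFD) from 9 weeks of age, so that undernourishment, fostering and diet were common to the 8 animals. From 17 weeks UN-TU animals received tauroursodeoxycholic acid (TUDCA) into the stomach, 0.5 g/kg each day, and UN-Veh animals received vehicle. NN-TU and NN-Veh livers (4 each, from normally nourished dams, same age, diet and doses) are used only where the response to TUDCA is set against theirs. No source gives the litters of the arrayed animals.

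TUDCA is a taurine-conjugated bile acid. The liver makes bile acids from cholesterol, conjugates them and secretes them into bile, and bile acids that return from the gut repress their own synthesis through the nuclear receptor FXR and the gut hormone FGF15. The factor SREBP2 switches on the genes of cholesterol synthesis when the sterol of cell membranes is low. TUDCA is also used as a chemical chaperone that relieves stress of the endoplasmic reticulum, and the study gave it to mice whose livers accumulate lipid on HFD.

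Total RNA of each liver was hybridized to its own Affymetrix mouse gene array, and the values are log2 signals. A log2 fold change is the UN-TU mean minus the UN-Veh mean, given with its standard error (SE) from limma, and p-values were adjusted by Benjamini-Hochberg over 25341 probe sets named by a gene. The medians of the 8 arrays lay between 4.15 and 4.22, and each array had a median correlation of 0.991 to 0.992 with the other arrays of the cohort. The liver label held, with 12.71, 12.69, 12.72 and 12.68 in UN-TU livers, against 12.71, 12.66, 12.71 and 12.68 in UN-Veh livers for the albumin gene Alb. At an adjusted p under 0.05, 103 probe sets passed (0.406% of those tested), 35 of them higher and 68 lower in UN-TU (0.138% and 0.268%), and 30 differed by 2-fold or more. With each array moved to a common median the split was 68 higher and 61 lower. At the study's own thresholds, a linear fold change of 2 with an unadjusted p under 0.05, 45 passed (0.178%), 19 higher and 26 lower in UN-TU (0.0750% and 0.103%). These calls draw on the spread shared by the 4 groups of the cohort. With the methods' own test per probe set 0 passed an adjusted p under 0.05, with the 8 arrays alone 25 did, with all 30 arrays of the study in the fit 7 did, and leaving out 1 of the 8 arrays gave 34 (without UN-TU replicate 27) to 125 (without UN-TU replicate 30).

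**Figure D1:**
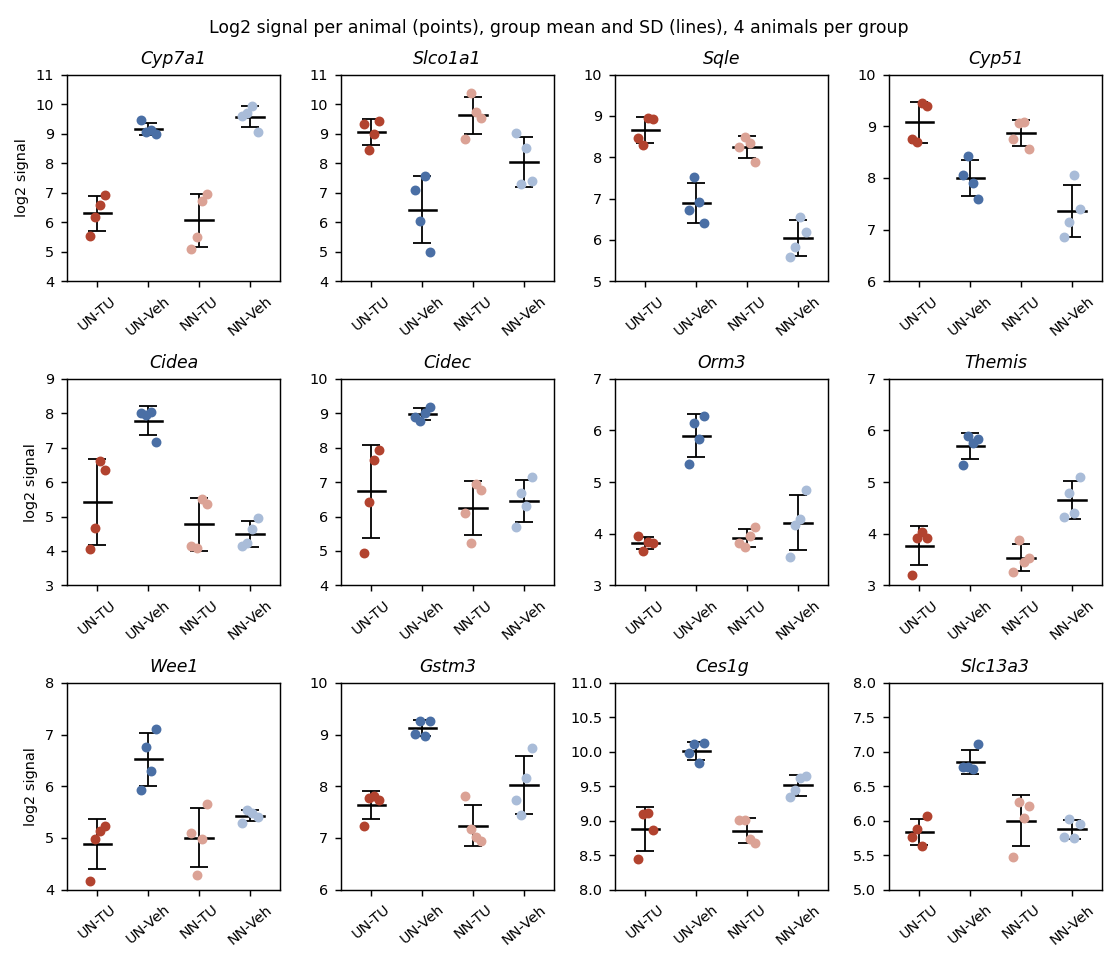
Log2 signal (y axis) of 12 genes in each animal (points), with the mean and SD of each group (lines), for UN-TU, UN-Veh, NN-TU and NN-Veh livers (n = 4 each). In these panels no UN-TU animal overlaps the UN-Veh animals, and the 4 UN-TU livers spread most in Cidea (SD 1.25) and Cidec (SD 1.36).

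The genes of cholesterol synthesis were higher in UN-TU livers. Of 17 measured genes of the pathway all 17 had a log2 fold change above 0, against 46.8% of all probe sets. Of the 17, 4 rose (Sqle, Cyp51, Lss and Mvk) and 15 had an unadjusted p under 0.05 for a higher level, against 4.96% of all probe sets. Their median was 0.60, beside -0.01 for all probe sets tested. Sqle, the squalene epoxidase that puts the first oxygen on the sterol precursor, measured 8.46, 8.30, 8.95 and 8.92 in UN-TU livers, against 6.71, 7.53, 6.92 and 6.40 in UN-Veh livers. The highest UN-Veh liver, replicate 24, lay below the lowest UN-TU liver, and Sqle rose by 1.77 (SE 0.22, adjusted p = 5.94e-04). Cyp51, which removes a methyl group from lanosterol, measured 8.76, 8.70, 9.44 and 9.39 in UN-TU livers, against 8.05, 8.43, 7.91 and 7.60 in UN-Veh livers, a rise of 1.08 (SE 0.22, adjusted p = 0.0354). Lss, which closes squalene epoxide into lanosterol, measured 8.21, 8.02, 8.82 and 8.62 in UN-TU livers, against 7.16, 7.95, 7.46 and 7.01 in UN-Veh livers, a rise of 1.02 (SE 0.19, adjusted p = 0.016). In all 3 of these genes UN-TU replicates 29 and 30 were the highest and UN-Veh replicate 24 was the nearest to the UN-TU livers.

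Mvk, the kinase that phosphorylates mevalonate, measured 6.47, 6.53, 6.98 and 6.73 in UN-TU livers, against 5.96, 6.09, 5.85 and 6.06 in UN-Veh livers and rose by 0.69 (SE 0.12, adjusted p = 0.00931). Among 6 measured genes of the mevalonate arm, which builds the isoprenoid units, Mvk alone passed the test. Hmgcs1, which makes the HMG-CoA that enters the pathway, had 10.70, 10.82, 11.47 and 11.50 in UN-TU livers, against 10.53, 10.80, 10.46 and 10.28 in UN-Veh livers, and its groups overlapped (log2 fold change 0.60, SE 0.20, adjusted p = 0.223). Fdps (0.64), Pmvk (0.54) and Mvd (0.52) did not pass either (adjusted p = 0.233, 0.212 and 0.392), and Ggps1, on the branch to protein prenylation, had 0.07. Among 11 genes of the sterol arm, Msmo1 (0.81), Fdft1 (0.63) and Tm7sf2 (0.57) were higher in every UN-TU liver than in any UN-Veh liver and had an adjusted p of 0.0568, 0.0792 and 0.0585. The lowest fold changes of this arm were in its late enzymes Dhcr7 (0.41), Sc5d (0.26) and Ebp (0.23). Sqle and Mvk passed with each of the 8 arrays left out in turn. With the 8 arrays alone in the fit, Mvk, Lss and Cyp51 did not pass (adjusted p = 0.058, 0.0947 and 0.0736 in limma). Lss was lost without UN-Veh replicate 23 or 26 (adjusted p = 0.0504 to 0.069), and Cyp51 without UN-TU replicate 27, 29 or 30 or UN-Veh replicate 23, 25 or 26 (adjusted p = 0.0581 to 0.126).

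The sterol sensing genes had smaller values. Srebf2, which encodes SREBP2, measured 7.50, 7.46, 7.48 and 7.46 in UN-TU livers, against 7.02, 7.16, 7.19 and 7.08 in UN-Veh livers, with no overlap between the groups but an adjusted p of 0.108 (log2 fold change 0.36, SE 0.10). Stard4, a carrier of cholesterol between membranes, had 0.48 (SE 0.14, adjusted p = 0.18), and Insig1, which holds SREBP proteins in the endoplasmic reticulum, 0.25 (SE 0.14, adjusted p = 0.549). Of 9 such genes 0 passed an adjusted p under 0.05 in limma, and 2 had an unadjusted p under 0.05, against 10.6% of all probe sets.

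Promoters of 4 cholesterol genes are shown because SREBP2 acts on them together with the factor NF-Y. From RefSeq (GRCm38.p6), promoters run from 250 bases before to 50 after the start of the gene, and 29 of the 41 genes that passed the test and follow the naming rule had one. The search, on both strands, was for the NF-Y box CCAAT and the sterol response element core TCACCCCAC, neither of which contains the other. The NF-Y box was in the promoters of 5 of 5 mevalonate and 9 of 9 sterol arm genes with a promoter, and in 41.1% of 27025 genes. It was also in those of 10 of 13 core clock, 9 of 17 clock output and 9 of 20 lipid droplet genes. The sterol core was in 1 of the 14 promoters of both arms, that of Hmgcs1, and in 0.614% of genes. Sqle had no promoter in the table, Hmgcs1 was added after its match was seen, and a match is a description of letters. Capitals mark both motifs on either strand (ATTGG is CCAAT on the opposite strand).
Mvk, chr5:114444019-114444318, plus strand: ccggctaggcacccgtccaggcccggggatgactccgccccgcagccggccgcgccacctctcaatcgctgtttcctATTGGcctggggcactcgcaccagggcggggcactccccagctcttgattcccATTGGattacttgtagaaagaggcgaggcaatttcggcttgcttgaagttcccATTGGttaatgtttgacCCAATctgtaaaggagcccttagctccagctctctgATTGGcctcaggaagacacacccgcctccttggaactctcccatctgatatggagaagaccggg
Cyp51, chr5:4104648-4104947, minus strand: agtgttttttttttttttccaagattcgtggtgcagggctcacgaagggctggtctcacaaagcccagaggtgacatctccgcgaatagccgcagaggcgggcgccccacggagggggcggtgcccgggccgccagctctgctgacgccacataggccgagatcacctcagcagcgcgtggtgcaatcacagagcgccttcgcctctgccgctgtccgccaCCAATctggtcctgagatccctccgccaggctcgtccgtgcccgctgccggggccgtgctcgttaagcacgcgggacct
Lss, chr10:76531355-76531654, plus strand: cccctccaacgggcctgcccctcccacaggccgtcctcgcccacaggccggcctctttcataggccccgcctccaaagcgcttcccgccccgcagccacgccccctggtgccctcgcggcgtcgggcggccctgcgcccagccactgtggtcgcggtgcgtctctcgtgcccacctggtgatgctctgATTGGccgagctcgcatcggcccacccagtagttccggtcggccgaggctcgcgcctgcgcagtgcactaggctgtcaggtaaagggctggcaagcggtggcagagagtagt
Hmgcs1, chr13:119690101-119690400, plus strand: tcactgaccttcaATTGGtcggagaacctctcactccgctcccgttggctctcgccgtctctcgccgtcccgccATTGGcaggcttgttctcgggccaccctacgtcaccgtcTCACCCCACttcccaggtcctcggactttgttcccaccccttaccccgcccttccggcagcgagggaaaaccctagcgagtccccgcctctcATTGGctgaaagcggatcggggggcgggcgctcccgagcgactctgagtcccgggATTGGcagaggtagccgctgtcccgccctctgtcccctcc

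Cyp7a1, the rate-limiting enzyme of bile acid synthesis from cholesterol, had the largest fall of all probe sets that passed the test. It measured 5.54, 6.18, 6.58 and 6.93 in UN-TU livers, against 9.44, 9.05, 9.12 and 8.98 in UN-Veh livers. The 4 UN-TU livers all lay below the lowest UN-Veh liver, replicate 26, and Cyp7a1 fell by 2.84 as a log2 value (SE 0.33, adjusted p = 2.45e-04), or 7.17-fold. The call held with each of the 8 arrays left out in turn. The other 14 measured genes of bile acid synthesis did not pass. Cyp27a1, which opens the alternative route, was lower in each UN-TU liver than in any UN-Veh liver (8.93, 8.92, 9.53 and 9.60 in UN-TU livers, against 9.85, 9.73, 9.75 and 9.69 in UN-Veh livers, log2 fold change -0.52, SE 0.15, adjusted p = 0.153), and Cyp8b1, the 12-alpha-hydroxylase that sets the share of cholic acid, had -0.39 (SE 0.16, adjusted p = 0.402). The oxysterol hydroxylases Cyp39a1 and Cyp7b1 had 0.61 (adjusted p = 0.0735) and 0.40 (adjusted p = 0.465). The conjugating enzymes Baat and Slc27a5 had -0.09 and -0.07.

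Slco1a1, an organic anion uptake carrier of the sinusoidal membrane that takes up bile acids, had the largest rise. It measured 9.32, 8.45, 8.98 and 9.42 in UN-TU livers, against 7.09, 6.03, 7.57 and 5.0 in UN-Veh livers, a rise of 2.62 (SE 0.45, adjusted p = 0.0104), and UN-Veh replicates 26 and 24 were the lowest. It passed with each of the 8 arrays left out in turn, but not with the 8 arrays alone in the fit. Of 14 measured bile acid carriers it was alone in passing. The main sodium-dependent uptake carrier Slc10a1 had 0.03 (SE 0.10) and the canalicular bile salt pump Abcb11 -0.10 (SE 0.11). The basolateral exporter Abcc3 measured 9.12, 9.72, 9.80 and 9.84 in UN-TU livers, against 9.95, 9.97, 9.95 and 10.13 in UN-Veh livers and was lower in every UN-TU liver, as were Abcg2 and Abcb1a, with log2 fold changes of -0.38, -0.34 and -0.36 (adjusted p = 0.255, 0.303 and 0.237). Among 11 bile acid receptors and their partners, limma called 0 after adjustment (threshold 0.05). Before adjustment, 3 had p-values below 0.05, 2 higher and 1 lower in UN-TU livers, beside 10.6% of all probe sets. With 1 array left out, the higher genes numbered 0 to 2 and the lower genes 1 to 2. Nr1h4, the gene of FXR, had 0.03 (SE 0.10), and its target Nr0b2, the gene of the repressor SHP, measured 7.12, 7.12, 7.07 and 6.56 in UN-TU livers, against 6.98, 7.01, 5.94 and 7.47 in UN-Veh livers, with overlapping groups. Nr1i3, which encodes the xenobiotic receptor CAR, was lower in every UN-TU liver (log2 fold change -0.46, SE 0.12, adjusted p = 0.108).

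**Figure D2:**
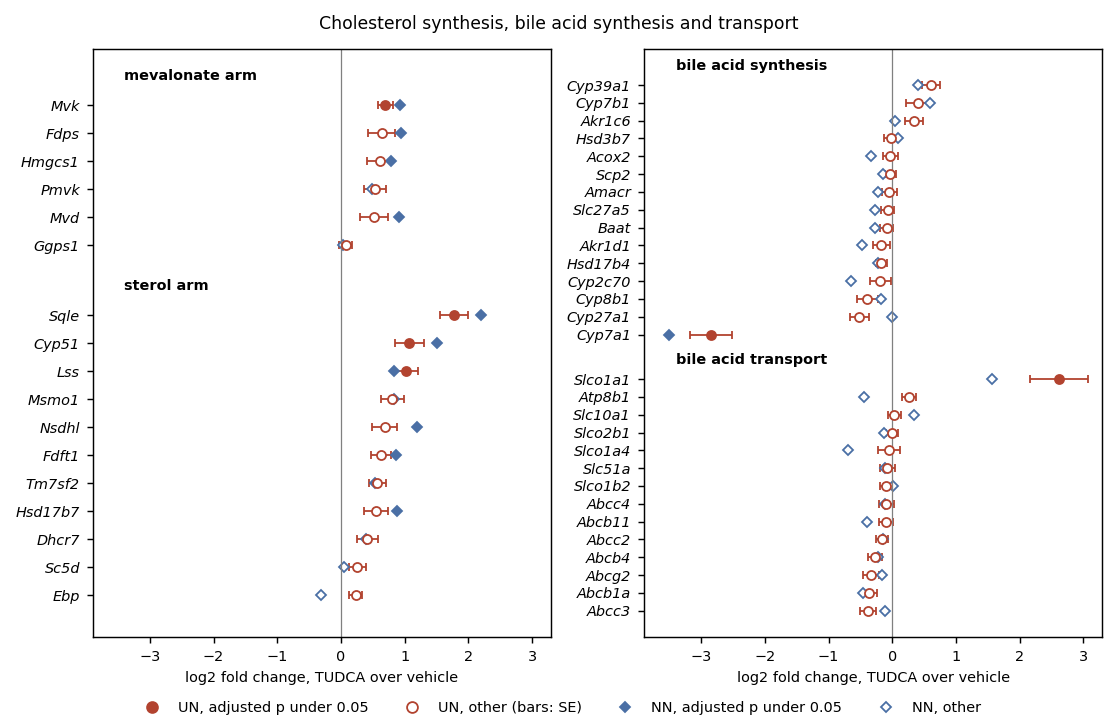
Log2 fold change of TUDCA over vehicle (x axis) for each measured gene of cholesterol synthesis, bile acid synthesis and bile acid transport, in UN livers (circles, bars: SE) and in NN livers (diamonds), filled where the adjusted p was under 0.05. All 17 genes of cholesterol synthesis lie above 0 in UN, and Cyp7a1 and Slco1a1 stand apart at -2.84 and 2.62.

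The lipid droplet genes Cidea and Cidec fell. Their proteins sit on droplets and let smaller ones empty into larger ones, and the study singled out both from these arrays, so that their direction here is not independent evidence. The paper also measured both genes by RT-PCR in each cohort, stained both proteins and reported parallel changes in droplet size. Cidea measured 4.06, 4.68, 6.62 and 6.34 in UN-TU livers, against 8.01, 7.94, 8.04 and 7.17 in UN-Veh livers and fell by 2.36 as a log2 value (SE 0.44, adjusted p = 0.0171). Cidec measured 4.94, 6.42, 7.63 and 7.93 in UN-TU livers, against 8.89, 8.79, 9.01 and 9.18 in UN-Veh livers and fell by 2.24 (SE 0.47, adjusted p = 0.0376). The groups did not overlap in either gene, but UN-TU replicates 27 and 28 were lower than replicates 29 and 30 in both. Cidea was lost without UN-TU replicate 27 or 28 or UN-Veh replicate 24 or 25 (adjusted p = 0.0604 to 0.0648), and Cidec without UN-TU replicate 27 or 28 or UN-Veh replicate 23, 24, 25 or 26 (adjusted p = 0.0715 to 0.116). In bulk liver, fewer cells that express a gene and less RNA per cell cannot be told apart.

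Cidea and Cidec were the 2 of 26 measured lipid droplet genes that fell, and 12 of the 26 had an unadjusted p under 0.05 for a lower level (5.64% of all probe sets). In 7 of the 26 every UN-TU liver lay below every UN-Veh liver, against 3.68% of all probe sets. The median was -0.20. Plin4, a droplet coat protein, measured 5.20, 5.65, 5.97 and 5.78 in UN-TU livers, against 6.43, 6.21, 6.54 and 6.36 in UN-Veh livers (log2 fold change -0.73, SE 0.16, adjusted p = 0.05, above the threshold before rounding), and Mogat1, an acyltransferase of triglyceride synthesis, had -0.74 (SE 0.18, adjusted p = 0.0798). The droplet-forming proteins Fitm1 and Fitm2 had -0.65 and -0.44 (adjusted p = 0.151 and 0.109), with no overlap. Pparg, the nuclear receptor that drives several of these genes in fatty liver, measured 6.2, 7.15, 7.44 and 7.50 in UN-TU livers, against 7.71, 7.75, 7.70 and 7.80 in UN-Veh livers and was lower in every UN-TU liver (log2 fold change -0.66, SE 0.21, adjusted p = 0.191). The abundant coat protein Plin2 had -0.25 (SE 0.11), and the synthesizing enzymes Dgat1 and Dgat2 did not differ beyond their SE (-0.05 and 0.06). UN-TU replicate 27 was the lowest of the 8 animals in Cidea, Cidec, Mogat1, Plin4, Fitm1, Fitm2 and Pparg.

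**Figure D3:**
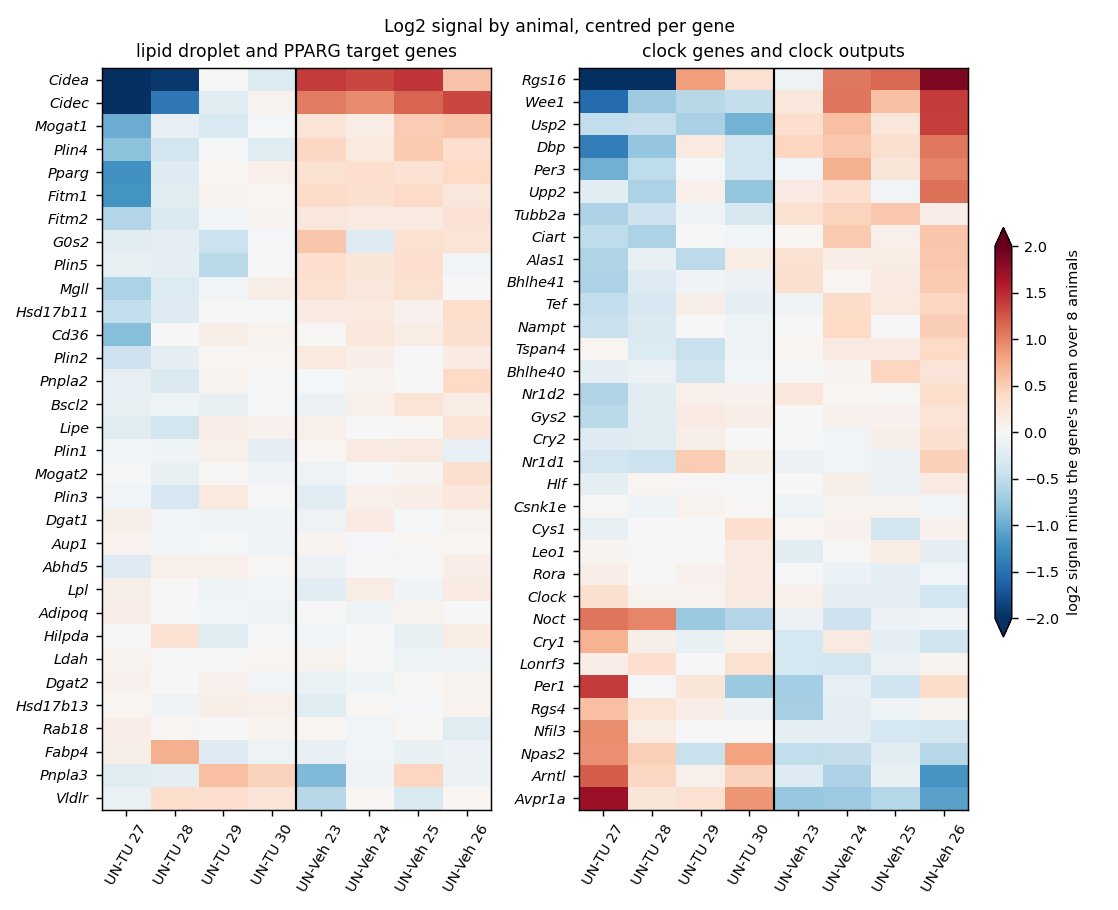
Log2 signal of each animal minus the gene's mean over the 8 animals (colour, blue below and red above the mean, saturated beyond 2) for lipid droplet and PPARG target genes (left) and clock genes and clock outputs (right), with UN-TU animals left of UN-Veh animals. UN-TU 27 is the lowest of the 8 animals in Cidea, Cidec and Rgs16, and UN-Veh 26 the highest in Rgs16, Wee1 and Usp2.

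Fat synthesis and fat burning genes gave few calls. Of 17 lipogenic genes 0 passed an adjusted p under 0.05 in limma and 2 had an unadjusted p under 0.05, a share near the 10.6% of all probe sets. These were Thrsp, a regulator of lipogenesis (8.54, 9.42, 10.06 and 9.80 in UN-TU livers, against 10.11, 10.72, 10.83 and 10.39 in UN-Veh livers, log2 fold change -1.06, SE 0.27, adjusted p = 0.0969), and Srebf1, the gene of the lipogenic factor SREBP1 (7.97, 8.11, 8.11 and 8.02 in UN-TU livers, against 8.62, 8.63, 8.80 and 8.70 in UN-Veh livers, log2 fold change -0.64, SE 0.15, adjusted p = 0.0694), and neither overlapped. The fatty acid synthase gene Fasn had -0.28 (SE 0.25) and the desaturase gene Scd1 -0.19 (SE 0.24). Of 18 genes of fatty acid oxidation 0 passed and 15 had values below 0, against 53.2% of all probe sets. An unadjusted p under 0.05 was found for 6, with 5 lower and 1 higher, against 10.6% of all probe sets. The 5 became 1 to 6 when 1 array was left out. In 5 of the 18 every UN-TU liver lay below every UN-Veh liver, against 3.68% of all probe sets. The 6 included the peroxisomal thiolase Acaa1b (-0.81, adjusted p = 0.094) and the receptor Ppara (-0.29, adjusted p = 0.32), both lower. The coactivator Ppargc1a (0.44, adjusted p = 0.186) was the higher one. Acot11, an acyl-CoA thioesterase, measured 5.05, 5.35, 5.24 and 5.10 in UN-TU livers, against 5.48, 5.56, 5.69 and 5.63 in UN-Veh livers and fell by 0.41 (SE 0.09, adjusted p = 0.0414), lost without UN-TU replicate 27, 29 or 30 or UN-Veh replicate 23, 24, 25 or 26 (adjusted p = 0.0504 to 0.161). The mitochondrial thioesterase Acot2 had -1.14 (SE 0.28, adjusted p = 0.0792). Pcx, pyruvate carboxylase, measured 8.97, 9.15, 9.28 and 9.18 in UN-TU livers, against 9.56, 9.58, 9.68 and 9.65 in UN-Veh livers and fell by 0.47 (SE 0.08, adjusted p = 0.0135), lost without UN-TU replicate 27 or UN-Veh replicate 25 or 26 (adjusted p = 0.052 to 0.0619). Of 17 apolipoprotein and lipoprotein genes 0 passed, and Apoa4, a protein of triglyceride-rich lipoproteins, measured 10.57, 10.53, 11.48 and 11.40 in UN-TU livers, against 11.60, 11.76, 11.77 and 11.89 in UN-Veh livers (log2 fold change -0.76, SE 0.19, adjusted p = 0.0865).

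Among 22 acute phase genes, 2 members of 1 family fell. Orm3 and Orm2 encode orosomucoids, plasma proteins made by the liver in inflammation, and their probe sets may share signal because the genes are near copies. Orm3 measured 3.96, 3.66, 3.84 and 3.82 in UN-TU livers, against 5.35, 6.13, 5.83 and 6.28 in UN-Veh livers, with every UN-TU liver below every UN-Veh liver. It fell by 2.08 (SE 0.21, adjusted p = 3.67e-05), and passed with each of the 8 arrays left out in turn. The UN-TU values of Orm3 lay below the array medians of 4.15 to 4.22, and a fall to so low a signal may be understated. Orm2 measured 8.08, 7.37, 7.31 and 6.98 in UN-TU livers, against 8.45, 8.71, 8.72 and 9.95 in UN-Veh livers and fell by 1.52 (SE 0.30, adjusted p = 0.0275), lost without UN-TU replicate 28, 29 or 30 or UN-Veh replicate 24, 25 or 26 (adjusted p = 0.054 to 0.0833). Orm1, the most abundant member of the family, had -0.37 (SE 0.17, adjusted p = 0.465). The serum amyloid gene Saa2 had -0.95 (adjusted p = 0.189) and Lcn2, an iron-binding protein, -0.36 (adjusted p = 0.669), with overlapping groups, while Apcs, the pentraxin of mouse plasma, had 0.66 (adjusted p = 0.115). The list's median was 0.09.

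Themis, which tunes T-cell receptor signalling, measured 3.20, 3.91, 4.04 and 3.93 in UN-TU livers, against 5.33, 5.89, 5.76 and 5.83 in UN-Veh livers and fell by 1.93 (SE 0.19, adjusted p = 3.67e-05), and passed with each of the 8 arrays left out in turn. Its UN-TU values too lay below the array medians. The T-cell receptor genes Cd3e and Cd3g had -0.28 (SE 0.13) and -0.29 (SE 0.13) and did not pass. The signals of 15 lymphocyte markers, summed, were 8.32 to 8.50 in UN-TU and 8.38 to 8.65 in UN-Veh on the log2 scale, and the part of lymphocytes in the Themis result was not tested. Ly6d, a surface protein of epithelial and B-lineage cells, measured 5.94, 6.13, 6.61 and 6.62 in UN-TU livers, against 6.94, 7.70, 8.31 and 7.53 in UN-Veh livers and fell by 1.29 (SE 0.27, adjusted p = 0.0395). Ifi27l2b, an interferon-inducible gene, fell by 1.14 (SE 0.23, adjusted p = 0.0347), the only one of 16 interferon-stimulated genes to pass. Sprr1a, of the cornified envelope, had 3.44, 3.5, 4.05 and 4.68 in UN-TU livers, against 4.57, 5.33, 5.39 and 4.81 in UN-Veh livers, with overlapping groups, and fell by 1.11 (SE 0.23, adjusted p = 0.0355). Lgals1, a secreted lectin, measured 5.62, 7.0, 7.05 and 6.59 in UN-TU livers, against 7.62, 7.58, 7.71 and 7.78 in UN-Veh livers and fell by 1.11 (SE 0.23, adjusted p = 0.0355). Without 1 array the calls were lost for Ly6d without UN-TU replicate 27 or 28 or UN-Veh replicate 24, 25 or 26 (adjusted p = 0.0935 to 0.145), for Ifi27l2b without UN-TU replicate 27, 29 or 30 or UN-Veh replicate 24, 25 or 26 (adjusted p = 0.0606 to 0.128), for Sprr1a without UN-TU replicate 27 or 28 or UN-Veh replicate 24, 25 or 26 (adjusted p = 0.0678 to 0.136) and for Lgals1 without UN-TU replicate 27 or 30 or UN-Veh replicate 23, 24, 25 or 26 (adjusted p = 0.0566 to 0.107).

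None of the markers of other cell types of the liver passed an adjusted p under 0.05 in limma (0 of 19 genes for macrophages, 15 for lymphocytes, 8 for neutrophils, 17 for stellate cells and matrix, 10 for endothelium, 6 for bile ducts and 6 for fat cells). At an unadjusted p under 0.05 the counts were 3, 2, 0, 2, 2, 0 and 1, against 10.6% of all probe sets. The summed fat cell markers were 7.92 to 8.57 in UN-TU and 8.03 to 8.05 in UN-Veh, and the summed bile duct markers 6.86 to 7.16 in UN-TU and 6.85 to 6.99 in UN-Veh. Vsig4, a receptor of Kupffer cells, had 0.48 (SE 0.17, adjusted p = 0.281), and the summed macrophage markers were 11 to 11.1 in UN-TU and 10.7 to 11.05 in UN-Veh. The collagen genes Col1a1 and Col3a1 had -0.43 and -0.42 (adjusted p = 0.149 and 0.201). Flt1, a VEGF receptor of endothelium, was higher in every UN-TU liver (log2 fold change 0.44, SE 0.10, adjusted p = 0.0546). The study chose 9 genes on these arrays, which is no independent evidence of their direction, and 7 of them fell here. The others were Rgs16, an inhibitor of G-protein signalling, with 5.23, 6.07, 9.03 and 8.49 in UN-TU livers, against 8.09, 9.25, 9.34 and 10.07 in UN-Veh livers (log2 fold change -1.98, SE 0.67, adjusted p = 0.246), and Cyp17a1, a steroid hydroxylase, with 1.32 (SE 0.36, adjusted p = 0.123).

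Among clock genes and their outputs, Avpr1a rose and Wee1 and Usp2 fell, all 3 of them outputs. The liver clock runs on Clock, Arntl and Npas2, which activate the Per, Cry and Rev-erb genes and outputs such as Dbp, and the Per, Cry and Rev-erb proteins shut the activators down. These were the 3 of 33 measured genes that passed, and 23 had an unadjusted p under 0.05 (8 higher and 15 lower), against 10.6% of all probe sets. Wee1, a kinase that holds back mitosis, measured 4.17, 4.98, 5.14 and 5.23 in UN-TU livers, against 5.93, 6.77, 6.29 and 7.10 in UN-Veh livers and fell by 1.65 (SE 0.26, adjusted p = 0.00657). Usp2, a ubiquitin protease, measured 5.21, 5.25, 5.07 and 4.76 in UN-TU livers, against 6.05, 6.32, 5.94 and 7.10 in UN-Veh livers and fell by 1.28 (SE 0.27, adjusted p = 0.0357), lost without UN-TU replicate 27, 28, 29 or 30 or UN-Veh replicate 24, 25 or 26 (adjusted p = 0.0505 to 0.123). Avpr1a, the liver's vasopressin receptor, measured 7.74, 6.26, 6.32 and 6.90 in UN-TU livers, against 5.26, 5.29, 5.45 and 4.93 in UN-Veh livers and rose by 1.57 (SE 0.27, adjusted p = 0.00931). Wee1 and Avpr1a passed with each of the 8 arrays left out in turn. With the 8 arrays alone in the fit, 0 of the clock outputs passed.

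None of 14 core clock genes passed an adjusted p under 0.05 in limma, and 7 had values above and 7 below 0. An unadjusted p under 0.05 was found for 9 (4 higher and 5 lower), against 10.6% of all probe sets. When 1 array was left out, 2 to 4 were higher and 2 to 5 lower. With each array moved to a common median, 5 were higher and 3 lower. Arntl measured 8.0, 7.19, 6.89 and 7.25 in UN-TU livers, against 6.53, 6.17, 6.64 and 5.6 in UN-Veh livers (log2 fold change 1.1, SE 0.28, adjusted p = 0.0901) and Npas2 had 0.89 (SE 0.24, adjusted p = 0.122). Per3 measured 4.59, 5.05, 5.52 and 5.19 in UN-TU livers, against 5.50, 6.27, 5.80 and 6.55 in UN-Veh livers (log2 fold change -0.94, SE 0.24, adjusted p = 0.084) and Dbp 6.76, 7.38, 8.33 and 7.78 in UN-TU livers, against 8.58, 8.70, 8.47 and 9.20 in UN-Veh livers (log2 fold change -1.18, SE 0.34, adjusted p = 0.153). Per1 had 0.44 and Nr1d1 -0.09, with overlapping groups. UN-TU replicate 27 was the highest of the 8 animals in Arntl, Avpr1a and Per1, and UN-Veh replicate 26 was the lowest in Arntl and the highest in Wee1, Usp2, Per3 and Dbp. As no source gives the hours at which the animals were killed, the phase of the day and feeding cannot be told apart from TUDCA in these genes. The same limit holds for the other genes of this comparison.

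The promoters of Per3 and Ciart are shown because each holds several matches to clock motifs and both genes had values below 0, and they were chosen after this was seen. The D-box TTATGTAA, bound by Dbp and its relatives, was in 1 of 13 core clock genes with a promoter and in 1.11% of all genes, and the E-box CACGTG, bound by Clock and Arntl, in 4 of 13 and in 8.09%. Per3 holds 2 D-boxes and Ciart 3 E-boxes in these windows. Other carriers went both ways. Per1, whose value was above 0, holds 1 E-box, and Slc17a1, which rose, and Ces1g, which fell, each hold 1 D-box. Per3 had -0.94 and Ciart, a repressor of Clock and Arntl, -0.61 (SE 0.23, adjusted p = 0.334). Capitals mark the D-boxes in Per3 and the E-boxes in Ciart.
Per3, chr4:151044616-151044915, minus strand: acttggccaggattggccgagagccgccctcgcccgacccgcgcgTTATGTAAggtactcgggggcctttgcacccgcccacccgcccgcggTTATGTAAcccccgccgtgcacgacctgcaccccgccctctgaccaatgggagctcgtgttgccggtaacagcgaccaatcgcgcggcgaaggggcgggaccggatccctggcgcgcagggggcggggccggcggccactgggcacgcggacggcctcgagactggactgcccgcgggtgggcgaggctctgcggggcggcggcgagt
Ciart, chr3:95882179-95882478, minus strand: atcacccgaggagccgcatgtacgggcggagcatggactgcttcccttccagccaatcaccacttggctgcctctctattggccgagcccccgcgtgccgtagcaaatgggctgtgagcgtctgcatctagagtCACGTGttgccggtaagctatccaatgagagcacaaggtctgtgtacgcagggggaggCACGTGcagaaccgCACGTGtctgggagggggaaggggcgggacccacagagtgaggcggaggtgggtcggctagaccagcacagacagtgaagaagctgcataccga

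Several secreted regulators of metabolism passed the test. Fst, follistatin, which binds activins, measured 6.78, 6.12, 5.99 and 6.03 in UN-TU livers, against 5.18, 5.16, 5.23 and 4.69 in UN-Veh livers and rose by 1.17 (SE 0.20, adjusted p = 0.00931). Inhbe, a subunit of activin E, measured 8.61, 9.60, 9.27 and 9.79 in UN-TU livers, against 10.34, 10.20, 10.12 and 10.03 in UN-Veh livers and fell by 0.86 (SE 0.17, adjusted p = 0.0318). Igfbp1, the insulin-repressed binding protein of IGF1, measured 7.97, 6.80, 7.36 and 7.77 in UN-TU livers, against 6.29, 6.39, 6.18 and 6.45 in UN-Veh livers and rose by 1.15 (SE 0.22, adjusted p = 0.0251). The 3 genes were the only ones of 19 hepatokines to pass, and in each the groups did not overlap. Fst was lost without UN-Veh replicate 26 (adjusted p = 0.0508), Inhbe without UN-TU replicate 27 or 29 or UN-Veh replicate 23, 24, 25 or 26 (adjusted p = 0.0557 to 0.0879) and Igfbp1 without UN-TU replicate 27 or 30 or UN-Veh replicate 23, 24, 25 or 26 (adjusted p = 0.0564 to 0.0995). The gluconeogenic enzymes Pck1 and G6pc had 0.33 (SE 0.17) and 0.11 (SE 0.21). Of 12 glucocorticoid-responsive genes all 12 had values above 0, against 46.8% of all probe sets, with a median of 0.33. In limma 0 passed an adjusted p under 0.05, and 5 had an unadjusted p under 0.05 for a higher level (4.96% of all probe sets). The 5 lay between 0 and 6 when 1 array was left out. The metallothionein genes Mt1 and Mt2, which respond to glucocorticoids and zinc, had 0.90 and 1.05 (adjusted p = 0.284 and 0.42), and UN-TU replicate 27 was the highest in both. Without it they had 0.59 and 0.52.

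Among enzymes of xenobiotic handling, 22 of 30 Cyp2 and Cyp1 genes, 15 of 23 glutathione and NRF2 genes and 11 of 13 carboxylesterase genes had values below 0, against 53.2% of all probe sets. Gstm3, a glutathione transferase, measured 7.23, 7.78, 7.82 and 7.74 in UN-TU livers, against 9.01, 9.27, 8.97 and 9.27 in UN-Veh livers and fell by 1.49 (SE 0.22, adjusted p = 0.00275), and its relative Gstm2 fell by 0.73 (SE 0.12, adjusted p = 0.00675). Both passed with each of the 8 arrays left out in turn, and no other glutathione or NRF2 gene passed. Ces1g, a carboxylesterase of liver that hydrolyses triglyceride and drugs, measured 8.44, 9.10, 9.12 and 8.86 in UN-TU livers, against 9.99, 10.11, 9.84 and 10.13 in UN-Veh livers and fell by 1.13 (SE 0.13, adjusted p = 2.45e-04), and passed with each array left out in turn. Cyp3a44 and Cyp3a59, of the bile acid and drug hydroxylating Cyp3a family, fell by 0.97 (SE 0.20, adjusted p = 0.0353) and 0.82 (SE 0.18, adjusted p = 0.0454), and the main member Cyp3a11 had -0.84 (SE 0.25, adjusted p = 0.175). The groups overlapped in Cyp3a59, with 5.92, 6.58, 6.12 and 5.79 in UN-TU livers, against 6.46, 7.31, 6.67 and 7.24 in UN-Veh livers. Of 7 Cyp3a genes 6 were below 0, with a median of -0.54. Cyp2c39, which hydroxylates retinoic acid, measured 4.46, 5.62, 5.67 and 5.15 in UN-TU livers, against 6.34, 6.40, 6.27 and 6.16 in UN-Veh livers and fell by 1.06 (SE 0.21, adjusted p = 0.0234). These families hold near copies, and their probe sets may share signal. Without 1 array the calls were lost for Cyp3a44 without UN-TU replicate 27, 28 or 30 or UN-Veh replicate 23, 24 or 26 (adjusted p = 0.0556 to 0.132), for Cyp3a59 without UN-TU replicate 27, 29 or 30 or UN-Veh replicate 24, 25 or 26 (adjusted p = 0.0627 to 0.165) and for Cyp2c39 without UN-TU replicate 27 or UN-Veh replicate 23, 24, 25 or 26 (adjusted p = 0.0549 to 0.0796).

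Carriers of small molecules passed in both directions. Slc13a3, which takes up dicarboxylates, measured 5.76, 5.88, 5.63 and 6.07 in UN-TU livers, against 6.78, 6.78, 6.75 and 7.11 in UN-Veh livers and fell by 1.02 (SE 0.14, adjusted p = 0.00186), and passed with each array left out in turn. Slc25a47, a mitochondrial carrier of hepatocytes, fell by 0.75 (SE 0.15, adjusted p = 0.0342), lost without UN-TU replicate 27 or 28 or UN-Veh replicate 24, 25 or 26 (adjusted p = 0.0759 to 0.113). Slc17a1, which exports urate and phosphate, rose by 0.57 (SE 0.12, adjusted p = 0.0457), lost without UN-TU replicate 27, 28 or 30 or UN-Veh replicate 23, 24, 25 or 26 (adjusted p = 0.0631 to 0.157). Rhbg, the ammonia channel of the hepatocytes around the central vein, measured 5.74, 6.49, 6.57 and 6.39 in UN-TU livers, against 7.43, 7.53, 7.33 and 7.30 in UN-Veh livers and fell by 1.1 (SE 0.15, adjusted p = 0.00152). Glul, glutamine synthetase of the same cells, was lower in every UN-TU liver, with UN-TU replicates 27 and 28 lowest (10.38, 10.54, 11.03 and 11.13 in UN-TU livers, against 11.29, 11.17, 11.17 and 11.20 in UN-Veh livers, log2 fold change -0.44, SE 0.15, adjusted p = 0.234). Slco2a1, a prostaglandin carrier, measured 8.98, 8.62, 8.11 and 8.34 in UN-TU livers, against 7.56, 7.70, 7.16 and 7.56 in UN-Veh livers and rose by 1.02 (SE 0.16, adjusted p = 0.00681). Abca8a, an ABC transporter, measured 7.91, 7.74, 7.53 and 7.73 in UN-TU livers, against 6.85, 7.07, 6.74 and 7.18 in UN-Veh livers and rose by 0.77 (SE 0.11, adjusted p = 0.00152). Rhbg, Slco2a1 and Abca8a passed with each of the 8 arrays left out in turn.

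Slco1a1 is also a male-biased gene of mouse liver, set by the pulses of growth hormone. Of 21 male-biased genes it alone rose, 7 had an unadjusted p under 0.05 for a higher level and 2 for a lower one, against 4.96% and 5.64% of all probe sets. Among the 7 were Hsd3b5, a steroid reductase, with 7.89, 5.22, 4.65 and 4.96 in UN-TU livers, against 3.23, 4.11, 3.95 and 3.56 in UN-Veh livers (log2 fold change 1.97, SE 0.77, adjusted p = 0.349, and 1.23 without UN-TU replicate 27) and Elovl3, a fatty acid elongase, with 0.67 (adjusted p = 0.226). Of 18 female-biased genes Cyp3a44 fell. The organic anion carrier Slc22a27 had -1.1 (adjusted p = 0.177), and Cyp17a1, given above, 1.32. Growth hormone and STAT5 genes gave 0 of 14 calls in limma. At an unadjusted p under 0.05 the count was 1, against 10.6% of all probe sets. It was the binding protein gene Igfbp2 (-0.41, adjusted p = 0.298).

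Among plasma proteases, F11, coagulation factor XI, measured 9.09, 8.86, 8.79 and 8.49 in UN-TU livers, against 8.12, 8.10, 7.95 and 8.12 in UN-Veh livers and rose by 0.74 (SE 0.14, adjusted p = 0.0176), lost without UN-TU replicate 27 or 28 or UN-Veh replicate 24, 25 or 26 (adjusted p = 0.0506 to 0.0751). It was the only one of 21 complement and coagulation genes to pass, while 7 of the 21 were higher in every UN-TU liver than in any UN-Veh liver (3.69% of all probe sets), among them the terminal complement genes C8b (0.77, adjusted p = 0.0792) and C8a (0.60, adjusted p = 0.0869). Trp53inp1, a p53 target in stress and autophagy, rose by 0.73 (SE 0.13, adjusted p = 0.0152). Prkx, a cAMP-regulated kinase, measured 5.24, 5.31, 5.40 and 5.32 in UN-TU livers, against 4.51, 4.65, 4.55 and 4.81 in UN-Veh livers and rose by 0.69 (SE 0.12, adjusted p = 0.0139). Wsb1, a substrate receptor of a ubiquitin ligase, rose by 1.14 (SE 0.20, adjusted p = 0.0123), and Kyat1, a kynurenine aminotransferase, by 0.67 (SE 0.14, adjusted p = 0.0353). Without 1 array the calls were lost for Trp53inp1 without UN-TU replicate 27 or UN-Veh replicate 25 or 26 (adjusted p = 0.057 to 0.0637), for Prkx without UN-Veh replicate 25 (adjusted p = 0.0562), for Wsb1 without UN-TU replicate 27 (adjusted p = 0.0604) and for Kyat1 without UN-TU replicate 27 or 28 or UN-Veh replicate 23, 24, 25 or 26 (adjusted p = 0.0653 to 0.132). Ccnd1, the cyclin that starts the cell cycle, measured 6.42, 6.72, 6.31 and 6.62 in UN-TU livers, against 7.41, 7.36, 7.09 and 7.36 in UN-Veh livers and fell by 0.78 (SE 0.13, adjusted p = 0.00931), and passed with each array left out in turn. Wee1 and Ccnd1 were the 2 of 18 cell cycle genes that fell, against 0.268% of all probe sets. Values below 0 were found for 17 of the 18, against 53.2% of all probe sets, with a median of -0.15.

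A further 48 named genes passed the test outside these rules, 11 higher by 0.39 to 0.57 and 37 lower by 0.36 to 1.05 on the log2 scale. The following were chosen after their values were seen. Aqp4, a water channel, had -0.85 (adjusted p = 6.56e-04), and Sulf2, which trims heparan sulfate on the hepatocyte surface, -0.91 (adjusted p = 0.00127). Mgmt, which repairs alkylated guanine, had -0.59 (adjusted p = 0.00152). Osbpl3, an oxysterol-binding protein, had -0.995 (adjusted p = 0.0218), and Mfsd2a, a carrier of lysophospholipids, -0.67 (adjusted p = 0.0395). Krt8, a keratin of hepatocytes, had -0.47 (adjusted p = 0.0152), and Hacl1, a lyase of branched fatty acid oxidation in peroxisomes, 0.47 (adjusted p = 0.0176).

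**Figure D4:**
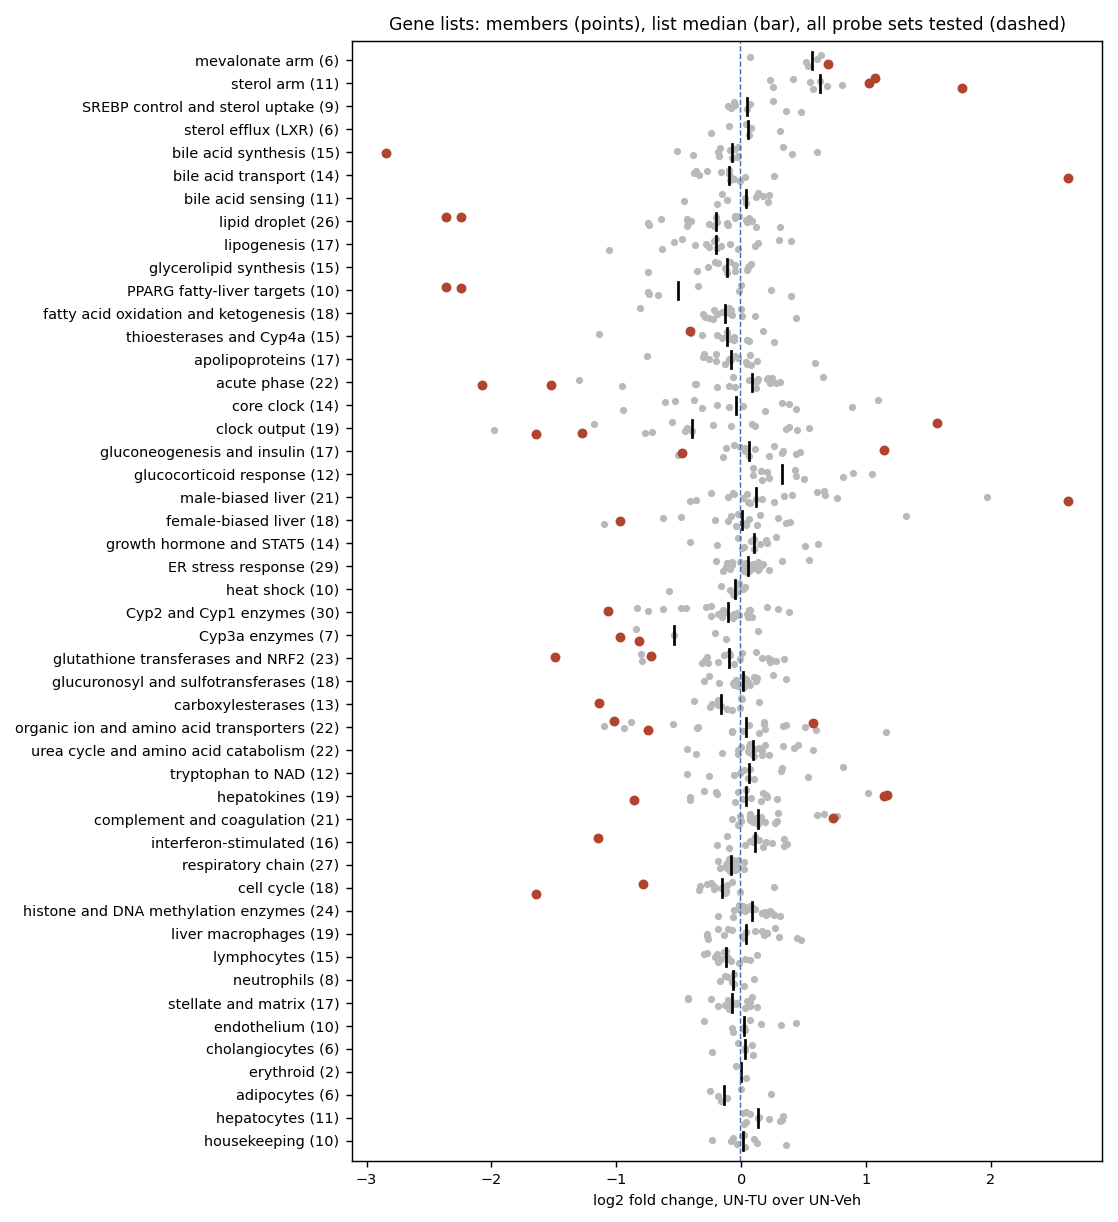
Log2 fold change of UN-TU over UN-Veh (x axis) for the members of 48 gene lists (rows, number measured in brackets), with members past an adjusted p under 0.05 in red, the list median as a bar and the median of all probe sets tested as a dashed line. The mevalonate and sterol arms have medians of 0.57 and 0.63, and those of the Cyp3a enzymes and PPARG targets are -0.54 and -0.50.

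Stress of the endoplasmic reticulum, which TUDCA is given to relieve, showed no call among 29 genes of the unfolded protein response. In limma 0 had an adjusted p under 0.05 and 2 an unadjusted p under 0.05, against 10.6% of all probe sets. The paper cites earlier work of its authors in which TUDCA suppressed this response in liver. The chaperone gene Hspa5 measured 9.36, 9.34, 8.90 and 9.13 in UN-TU livers, against 8.98, 9.07, 9.18 and 8.90 in UN-Veh livers (log2 fold change 0.15, SE 0.11, adjusted p = 0.698). Ddit3, the gene of CHOP, had 0.17 (SE 0.12), and Xbp1, a factor activated by splicing, 0.05 (SE 0.11). The genes with an unadjusted p under 0.05 were both higher, the factor Atf4 (log2 fold change 0.33, SE 0.11, adjusted p = 0.259) and its target Asns, asparagine synthetase (log2 fold change 0.54, SE 0.23, adjusted p = 0.397). The list's median was 0.06. Of 24 enzymes that write or erase histone and DNA methylation 0 passed and 6 had an unadjusted p under 0.05, all higher (4.96% of all probe sets), a count of 2 to 6 when 1 array was left out. They included Suz12, a subunit of the complex that methylates H3K27 (log2 fold change 0.26, SE 0.08, adjusted p = 0.2), Kdm6a, which removes that mark (log2 fold change 0.23, SE 0.09, adjusted p = 0.386), and Setd2, which methylates H3K36 (log2 fold change 0.20, SE 0.08, adjusted p = 0.396). Ezh2, the methylase of the same complex, had 0.01 (SE 0.11). Of 27 respiratory chain genes 25 were below 0, against 53.2% of all probe sets, with a median of -0.08, and none had an unadjusted p under 0.05.

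The response of UN livers was set against that of NN livers, which share no animals with them. Of 25341 probe sets 0 passed an adjusted p under 0.05 for the difference between the responses in limma, and 3009 had an unadjusted p under 0.05 (11.9%). In NN-TU against NN-Veh 342 passed (1.35%). The smallest adjusted p of the difference belonged to Orm3 (0.0509), whose log2 fold change was -2.08 in UN and -0.30 in NN. Slc13a3 had -1.02 in UN and 0.13 in NN (adjusted p of the difference 0.0534). Sult1e1, an estrogen sulfotransferase, had 0.13 in UN and -1.93 in NN (0.0517), with 3.69, 4.06, 2.98 and 3.37 in UN-TU livers, against 3.57, 3.41, 3.3 and 3.32 in UN-Veh livers, and 3.70, 3.36, 3.45 and 3.12 in NN-TU livers and 5.18, 4.75, 5.09 and 6.33 in NN-Veh livers. The 4 UN-Veh livers lay within the range of the NN-TU livers, below every NN-Veh liver and below the array medians. Whether so low a starting level limited a fall in UN was not tested. The NAD carrier Slc25a51 (0.49 in UN and -0.79 in NN) and the cornified envelope gene Lce3c (0.40 and -0.39) followed with 0.0744 and 0.0745. The count of differences past an adjusted p under 0.05 was 104 without NN-TU replicate 19, 12 and 10 without UN-TU replicate 29 or 30, and 3 without UN-Veh replicate 23 or without replicate 18 of NN-Veh.

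Of the 41 named genes that passed in UN, 10 also passed in NN in the same direction: Sqle, Cyp51, Lss, Mvk, Cyp7a1, Themis, Ces1g, Cyp3a59, Gstm2 and Ccnd1. These genes were chosen by their values in UN, so that larger values in UN than in NN are partly set by the choice. Cyp7a1 had -2.84 in UN and -3.51 in NN (unadjusted p of the difference 0.162), and the cholesterol genes had medians of 0.60 in UN and 0.84 in NN, with 4 and 12 of 17 passing. The smallest adjusted p of the difference among these 17 was 0.181. Cidea had -2.36 in UN and 0.28 in NN (adjusted p of the difference 0.112), and Cidec -2.24 and -0.20 (0.239). Cidea measured 4.14, 4.08, 5.50 and 5.36 in NN-TU livers and 4.13, 4.24, 4.65 and 4.95 in NN-Veh livers, all below the lowest UN-Veh liver.

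Genes of amino acid metabolism were also set side by side. Of 22 genes of the urea cycle and amino acid breakdown, 18 had an unadjusted p under 0.05 for the difference, against 11.9% of all probe sets, with a median of 0.09 in UN and -0.32 in NN. Among them Got1, an aspartate aminotransferase, had 0.58 in UN and -0.54 in NN, and the urea cycle genes Cps1 and Arg1 had 0.15 and 0.19 in UN and -0.29 and -0.31 in NN. None passed within UN (adjusted p = 0.133 for Got1). Of 12 genes from tryptophan to NAD, 7 had such a p, including Acmsd, which draws the pathway away from NAD (0.82 in UN and -1.47 in NN), with 8.22, 7.31, 6.27 and 6.44 in UN-TU livers, against 6.45, 6.25, 6.08 and 6.19 in UN-Veh livers. UN-TU replicate 27 was the highest in Acmsd, and without it the value in UN was 0.43. Other lists had NN medians below 0 as well, such as -0.27 for interferon-stimulated, -0.18 for respiratory chain and -0.12 for housekeeping genes. The mevalonate and sterol arms had 0.85 and 0.84. In limma 8 of 16 interferon-stimulated genes and 11 of 22 organic ion and amino acid carriers had an unadjusted p under 0.05 for the difference. For respiratory chain genes the count was 0 of 27. The lists were chosen with earlier results of these data known, so that such counts may be partly set by the choice.

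**Figure D5:**
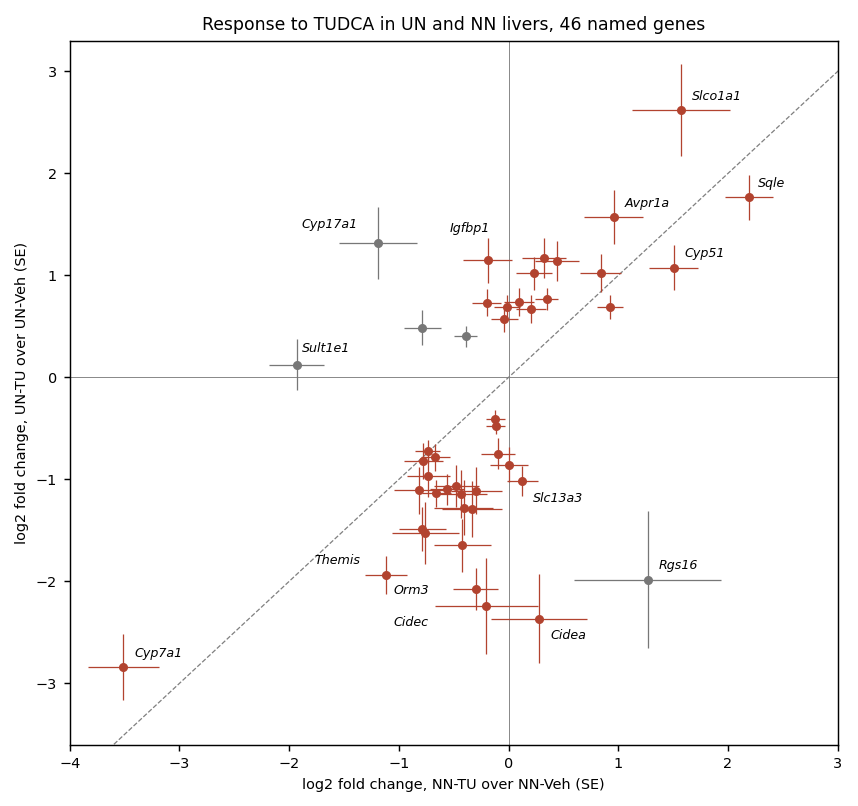
Log2 fold change of UN-TU over UN-Veh (y axis) against that of NN-TU over NN-Veh (x axis) for the 46 named genes, with SE bars, in red where the adjusted p in UN was under 0.05 and with equal responses on the dashed line. Cyp7a1 and Sqle lie near the line, while Cidea, Cidec and Orm3 lie at -2.36, -2.24 and -2.08 in UN and between -0.30 and 0.28 in NN.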

How the data were processed

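Livers were profiled on Affymetrix mouse gene arrays, 1 per animal, and the authors deposited log2 signals per probe set made with Affymetrix Expression Console. The summarization, its version and the array strip of each sample are not given in the sources used here. Of 41345 probe sets 25341 carry a gene (23521 with 1 symbol, 1820 with several), which was named from the platform annotation and checked by gene ID against RefSeq GRCm38.p6 (23328 matched). Groups came from the labels.

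The test was limma 3.58.1 (R 4.3.3, lmFit and eBayes) on the 16 arrays of the 22-week cohort with a mean per group, Benjamini-Hochberg adjusted over the 25341 probe sets and called at 0.05. It was tested on simulated data. Where probe sets of a gene differed, the brightest over the 30 arrays stood for it. Named were the 15 largest rises and falls with 1 symbol (without predicted genes and small RNAs) and list members past the threshold. The 9 genes the study chose, and the 5 with the smallest p for the difference between UN and NN, were also named. List members that did not pass were quoted too, in some lists more than the 4 planned. A total of 49 lists held 768 genes, of which 687 were measured. The members and lists were chosen with earlier results of these data known. Alternatives were other sample sets, ANOVA, variance models, array weights, filters, normalizations and leaving out each array. The p-values measure the spread between these animals, and the number of arrays limits the precision. A probe set of 1 gene may share signal with near copies, and list members carried only by probe sets of several symbols were left out.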

Additional observations from a re-analysis of the deposited data

Results flagged for a closer look

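In 8 of 92 groups of 4 animals examined among the named genes, 1 animal stood far from the other 3, by a gap to the nearest that was large for the range of the group (Dixon's criterion). Chance gives about 1 such group in 20. UN-TU replicate 27 was the animal in 3 of them. It measured 6.785 in Fst, the activin-binding follistatin, against 5.99 to 6.12 in the other UN-TU livers. It measured 3.20 in Themis, the T-cell signalling gene, against 3.91 to 4.04, and 7.23 in the glutathione transferase gene Gstm3, against 7.74 to 7.82. UN-Veh replicate 26 was also the animal in 3. It measured 4.69 in Fst, against 5.16 to 5.23 in the other UN-Veh livers, 7.17 in the lipid droplet gene Cidea, against 7.94 to 8.04, and 7.11 in the dicarboxylate carrier gene Slc13a3, against 6.75 to 6.78. UN-Veh replicate 25 measured 7.95 in F11, coagulation factor XI, against 8.10 to 8.12. UN-TU replicate 29 measured 6.51 in Slc17a1, the urate and phosphate carrier gene, against 6.89 to 6.95. Fst lost its call without UN-Veh replicate 26 (adjusted p = 0.0508 in limma).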

How the results depend on the processing

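Of the 103 probe sets past an adjusted p under 0.05 in limma, 23 remained among the 25 called with the 8 arrays alone, 7 among the 7 called with all 30 arrays in 1 fit, 30 among the 40 called over all probe sets of the table and 91 among the 194 called over the brighter probe sets. The ANOVA of the methods called 0 after adjustment and 39 at the study's thresholds, against 45 with limma. The cause of these differences was not tested. Leaving out 1 of the 8 arrays gave 34 (without UN-TU replicate 27) to 125 calls (without UN-TU replicate 30), and 26 to 58 at the study's thresholds, with 26 again without UN-TU replicate 27. When probe sets without a gene were counted too, 82 passed the study's thresholds. Moving each array to a common median shifted the median log2 fold change to 0.02, against -0.01, and split the calls into 68 higher and 61 lower, against 35 and 68. For the difference between UN and NN, 0 passed, against 1 with all 30 arrays, 2 with a variance trend, 2 with array weights, 3 over the brighter probe sets, 9 with a common median and 0 to 104 when 1 array was left out (104 without NN-TU replicate 19).

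Of 690 values of named genes under the alternatives, 443 kept their direction and side of the threshold, 246 kept only their direction and 1 reversed. Sult1e1 had -0.053 without UN-TU replicate 28 (adjusted p = 0.971) to 0.306 without UN-TU replicate 29, against 0.13. Of the 41 named genes that passed, 16 passed without each of the 8 arrays in turn, and 0 passed under every alternative, ANOVA included. No paired analysis was possible because replicate numbers run through the study and no number is shared between groups. Signals near the lowest levels leave little room to measure a fall.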
